A study of Mus musculus with 4 samples.

Results

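The leukocyte integrin genes are described here through the cytosines that were listed as methylated in messenger RNA of Tet2 knockout leukemia cells. Members were the 10 genes Itgal, Itgam, Itgax, Itga4, Itga5 and Itga6, which encode alpha chains, and Itgb2, Itgb1, Itgb7 and Itgb3, which encode beta chains. The genes were chosen with earlier results of these data known. A position belonged to a member when one of its comma-separated gene labels was that gene, whatever its measured values. This gave 1243 of the 506952 listed positions (0.245%), 925 of them in alpha chain genes and 318 in beta chain genes.

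The study measured RNA cytosine methylation in a cultured mouse line of acute myeloid leukemia that carries NRAS and AE9a, which is a truncated AML1-ETO fusion. There were 2 libraries labelled Tet2 KO and 2 labelled WT, all from bisulfite-treated poly(A) RNA of the same cell line. Every culture received SCF (50 ng/ml), IL-3 and IL-6 (10 ng/ml each), and was kept under G418 (1 mg/ml) and puromycin (2 µg/ml). Tet2 encodes a dioxygenase that oxidises 5-methylcytosine. The sources used here do not give the deleted part of the gene, nor whether a genotype was 1 clone or its replicates were separate cultures. By its name the authors' table keeps positions unique to the KO, and it has 0 columns of WT values and 0 columns of a single library. No difference between KO and WT was therefore tested, and every value below belongs to the KO libraries. The lowest level listed was 0.2 and the lowest coverage 10 reads, so a gene without a listed site is not shown to lack methylation, and a count of 0 sets no upper limit.

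Integrins are surface receptors made of 1 alpha and 1 beta chain, which bind counter-receptors on other cells or proteins of the extracellular matrix. The cytoplasmic tails bind talin and kindlin, which switch the receptor to its ligand-binding shape. Itgb2 pairs with Itgal, Itgam or Itgax in receptors of leukocytes for ICAM proteins and complement fragments. Itgb1 pairs with Itga4, Itga5 or Itga6 and binds VCAM1, fibronectin or laminin. Itgb7 pairs with Itga4 in a receptor for the gut vessel protein MAdCAM. Itgb3 pairs with Itga2b on platelets and with Itgav on many cells. Bisulfite turns unmethylated cytosine into uracil, and the methylation level is the fraction of used reads that still show cytosine at that place. Whether the cytosines listed here stayed unconverted because of methylation or for another reason was not tested.

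Over all protein-coding genes 34.2% had at least 1 listed site, and the marker lists are given beside that share. Sites lay in 13 of 15 myeloid and blast markers, among them Csf3r, Mpo and Cd34. Of these 13, the 4 on the minus strand (Cd33, Lyz2, Fcgr3 and Cd14) had 1 to 3 sites each. Of T and NK cell markers 1 of 12 had sites, namely Nkg7 with 56. Sites lay in 0 of 6 markers of B cells, in 0 of 5 of erythroid cells and in 1 of 7 of endothelium and stroma. For platelets and megakaryocytes 3 of 7 markers had a site, with 17 in Pf4 and 12 in Ppbp, while 0 were listed in Itga2b, which lies on the minus strand. Nearly all positions were listed on the plus strand. RefSeq's promoter table gives that strand to 4 of the T and NK cell markers and 1 of the B cell markers. It gives it to 2 of the erythroid markers and 2 of those of endothelium and stroma. Few or no sites in these lists therefore say little about those cells. All 6 pancreatic islet hormone genes on the list also had sites, 593 in sum, although these cells are labelled as leukemic. The part of RNA from other cells in the integrin values was not tested.

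Of the integrin genes, 9 of 10 had at least 1 listed site, against 34.2% of protein-coding genes. The share of protein-coding genes with a site was 51.4% for those transcribed from the plus strand and 18.5% for those from the minus strand, as far as RefSeq's promoter table gives the strand. The 8 integrin genes with 76 or more sites had all of them on the plus strand, 1241 of the 1243 sites. For Itgal, Itga6, Itgb2 and Itgb3 the strand was read from their own sites, since the promoter table does not hold them. Itgb7 and Itga5, both on the minus strand, had 2 sites and 0 sites. Over all listed positions 99.1% lay on the plus strand. Some minus-strand genes still had many sites, such as the islet genes Gcg with 228 and Ins2 with 139. The counts of Itgb7 and Itga5 therefore cannot be set against those of the other members. In the comparisons of gene values below, plus-strand protein-coding genes are those with a plus-strand site inside their span. They were taken by the strand of the site and not by RefSeq's strand. The 5473 such genes had a median of 71 sites, with quartiles of 38 and 116. Site numbers were not corrected for RNA amount, and in bulk libraries fewer cells of a type and less RNA per cell cannot be told apart.

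**Figure D1:**
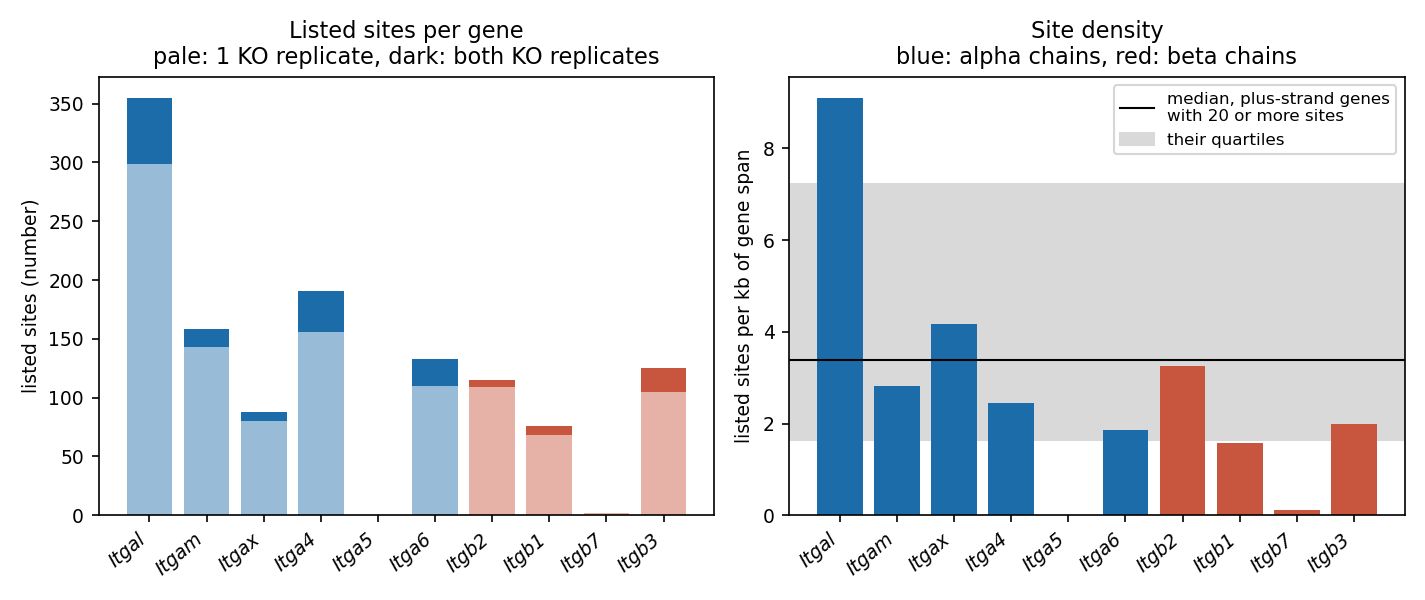
Left, listed sites per integrin gene, with sites called in 1 KO replicate pale and in both dark. Right, listed sites per kb of RefSeq gene span, with the median (line, 3.39) and quartiles (band, 1.65 to 7.23) of 4789 plus-strand protein-coding genes with 20 or more sites. Itgal stands at 355 sites and 9.10 sites per kb, above the band, and Itga5 at 0.

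Among the alpha chains that pair with Itgb2, Itgal had the most sites. Itgal encodes the alpha chain of the lymphocyte function-associated antigen that binds ICAM1, and it had 355 sites between 127296451 and 127335081 on the plus strand of chromosome 7 (mm10). It had more sites than 99.2% of plus-strand genes with a site, and 9.10 sites per kb of gene span. Its sites had a median level of 0.545 (quartiles 0.385 and 0.75) and a median coverage of 15 reads. Its most deeply read site, at 127333591, had 107 covering reads and stayed unconverted in 53 of the 86 used (0.616, Wilson 95% interval 0.511 to 0.712). Of its sites with 20 or more covering reads 6 had a level of 1. The one with the most reads used, at 127334778, stayed unconverted in 19 of 19 (interval 0.832 to 1), although 58 reads covered it. Intervals in this text cover counting error only, and PCR copies among the reads were not separated here. The site read most deeply among those called in both replicates, at 127310289, had replicate levels of 0.566 and 0.568.

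Itgam, which encodes the CD11b chain of myeloid cells and the complement receptor, had 158 sites between 128064657 and 128118147 on chromosome 7. Its median level was 0.462 (quartiles 0.308 and 0.625), at a median of 20 covering reads. Itgam held 15 of the 25 integrin sites with 100 or more covering reads. The deepest, at 128117497, kept 201 unconverted reads of 293 used (0.686, interval 0.631 to 0.736). Those at 128117491 and 128117495 kept 187 of 267 reads (0.700) and 192 of 264 reads (0.727). Each was called in 1 replicate. These positions stood within 7 nt of each other, about 1000 nt before the end of the gene span.

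The sites around that group had fewer reads. The listed Itgam sites just before it had 65 covering reads at 128117453 and 189 at 128117473, and the next one after it, at 128117558, had 14. Further on, 4 more sites with 122 to 168 covering reads, at 128117864, 128117981, 128118005 and 128118147, had levels of 0.364, 0.439, 0.227 and 0.378. The deepest stretch was thus also the one with the higher levels among the deep sites near this 3' end. The Itgam site with the most covering reads among those called in both replicates, at 128107938, had replicate levels of 0.589 and 0.625, with 139 covering reads on average.

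**Figure D2:**
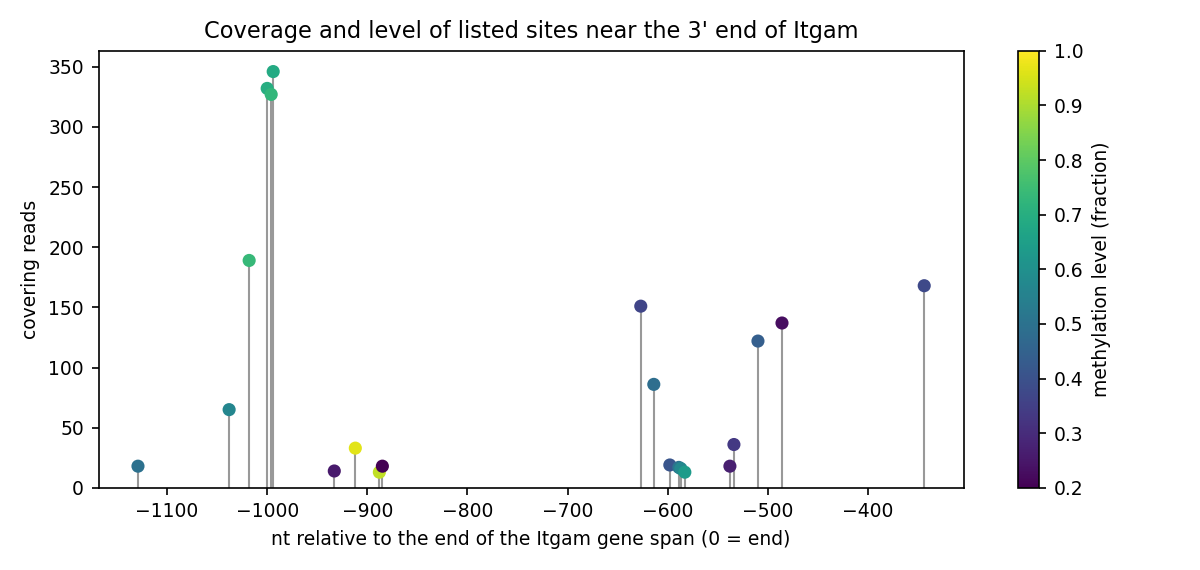
Listed sites in the last 1200 nt of the Itgam gene span, by distance from its end (x, nt) and covering reads (y), with the methylation level as colour. The group near 1000 nt before the end reaches 327 to 346 reads at levels of 0.686 to 0.727, and deep sites closer to the end have levels of 0.227 to 0.439.

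Itgax encodes the CD11c chain of dendritic cells and macrophages and lies next to Itgam on chromosome 7. It had 88 sites between 128129633 and 128150571, a median level of 0.5 (quartiles 0.328 and 0.624) and a median coverage of 17 reads. Its most covered site, at 128149154, was called in both replicates at 0.220 and 0.222, near the lowest level that the table holds. It had 100 covering reads on average, of which about 41 were used. The site with the most reads used, at 128142338, kept 32 of 64 (0.5, interval 0.381 to 0.619). Its highest site with 20 or more covering reads, at 128149107, kept 19 of 24 reads used (0.792, interval 0.595 to 0.908).

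Itga4, whose chain binds VCAM1 and fibronectin, had 191 sites between 79255648 and 79332071 on chromosome 2, more than 92.0% of plus-strand genes with a site. The median level was 0.5 (quartiles 0.38 and 0.705) at a median of 19 covering reads, and its deepest site had 60. That site, at 79328278, kept 27 of 48 reads used (0.562, interval 0.423 to 0.693). Itga4 had the largest share of sites called in both replicates among members, 35 of 191 (18.3%, exact interval 13.1 to 24.6). One of these, at 79255800, lay 375 nt from the start of the span and had replicate levels of 0.924 and 1. On average about 14 of its 40 covering reads were used. Of its 5 sites with a level of 1, that at 79256236 had 20 covering reads and the others fewer, and there 16 of 16 used reads stayed unconverted (interval 0.806 to 1). The 3' end of the Itga4 span overlaps Cerkl, and 0 Itga4 sites fell in the overlap.

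Itga6, which encodes a laminin receptor chain, had 133 sites between 71787049 and 71858025 on chromosome 2, with a median level of 0.5 (quartiles 0.355 and 0.696) at a median of 22 covering reads. Its deepest site, at 71856003, kept 29 of 71 reads used (0.408, interval 0.302 to 0.525). A level of 1 was listed at 71787257, near the start of the span, and at 71857062, near its end, in each case from 10 of 10 used reads (interval 0.722 to 1). At 71856297 both replicates had a level of 0.769, and at 71856011 they had 0.204 and 0.278. On average about 13 of 39 covering reads were used at 71856297 and about 37 of 73 at 71856011. Every Itga6 site carries a second label, that of the microRNA gene Mir5098. The table gives this label to 281 positions, all on chromosome 2, of which 148 are outside Itga6, whereas RefSeq places Mir5098 on chromosome 5 from 77272757 to 77272838. Leaving out positions with more than 1 label would remove Itga6 and leave 8 members with a site. Itga5, which encodes the fibronectin receptor chain that pairs with Itgb1, spans 103344286 to 103366791 on chromosome 15 and had 0 listed sites.

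Among the beta chains, Itgb2 is the common partner of Itgal, Itgam and Itgax. It had 115 sites between 77530389 and 77565672 on chromosome 10, with a median level of 0.5 (quartiles 0.385 and 0.727) and a median coverage of 15 reads. Its most covered site, at 77551043, kept 19 of 91 reads used (0.209, interval 0.138 to 0.303). Its 6 sites with a level of 1 had at most 13 covering reads. Among sites with 20 or more, the highest level was at 77530410, which kept 28 of 29 (0.966, interval 0.828 to 0.994) and lay 82 nt from the start of the span. Only 6 of its 115 sites were called in both replicates (5.22%, exact interval 1.94 to 11.01), the smallest share of the 8 plus-strand members. The deepest of the 6, at 77530407, had replicate levels of 0.632 and 0.750.

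Itgb1, the beta chain shared by the largest number of integrins, had 76 sites between 128685907 and 128732993 on chromosome 8. The median level was 0.5 (quartiles 0.344 and 0.708) and the median coverage 18.5 reads, with an upper quartile of 47.8, the highest among plus-strand members. Of its 76 sites 5 had 100 or more covering reads. The deepest of these, at 128732068, was called in both replicates at 0.260 and 0.310, with 164 covering reads on average. The site with the most reads used, at 128720438, kept 79 of 120 (0.658, interval 0.570 to 0.737). The site at 128710384 had 158 covering reads and a level of 0.202, from 24 of 119 reads used. The 5 deep Itgb1 sites thus ran from 0.202, close to the lowest level listed, to 0.658.

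Itgb3, the beta chain of the platelet fibrinogen receptor and of the vitronectin receptor, had 125 sites between 104608113 and 104670306 on chromosome 11. The median level was 0.542 (quartiles 0.367 and 0.615) at a median of 26 covering reads, the highest median coverage of the 8 plus-strand members. Its most covered site, at 104643953, kept 9 of 36 reads used (0.25, interval 0.138 to 0.411), while 101 reads covered it. The site with the most reads used, at 104660080, kept 33 of 62 (0.532, interval 0.410 to 0.651). At 104670306, 170 nt before the end of the span, the level was 1 in both replicates. On average about 11 of 34 covering reads were used there. The site at 104670011 had replicate levels of 0.682 and 0.712. Of the alpha chains that pair with Itgb3, Itgav on the plus strand had 167 sites and Itga2b on the minus strand had 0.

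Itgb7, on the minus strand of chromosome 15, had a site at 102224576 with 9 of 41 reads used unconverted (0.22, interval 0.120 to 0.367) and 92 covering reads. Its other site, at 102225570, kept 2 of 10 reads used (0.2, interval 0.0567 to 0.510). Both were called in 1 replicate and lay near the middle of the gene span.

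Alpha and beta chain genes had much the same level. The median over sites was 0.5 in the 6 alpha chain genes and 0.504 in the 4 beta chain genes, with quartiles of 0.364 and 0.7 in alpha chain genes and 0.364 and 0.684 in beta chain genes. Gene medians of the plus-strand members ran from 0.462 to 0.545 in 5 alpha chain genes and from 0.5 to 0.542 in 3 beta chain genes. Their order from high to low was Itgal, Itgb3, then Itgax, Itga4, Itga6, Itgb2 and Itgb1 at 0.5, then Itgam, and the ranges between quartiles overlapped for every neighbour in this order. The order changed with a coverage limit. With 20 or more covering reads Itgb1 had the lowest median, 0.364 over 37 sites, below Itgam with 0.414 over 81. With 50 or more, Itgam had 0.508 over 22 sites, above Itgax with 0.312 over 13 and Itga6 with 0.3 over 9. The median over the whole table was 0.526, and gene medians had quartiles of 0.5 and 0.578 over the 4789 plus-strand genes with 20 or more sites.

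Site density was spread more widely among alpha chains than the level was. Per kb of gene span, introns included, it was 9.10 in Itgal, 4.16 in Itgax, 2.83 in Itgam, 2.46 in Itga4, 1.86 in Itga6 and 0 in Itga5. In beta chain genes it was 3.25 in Itgb2, 2.00 in Itgb3, 1.59 in Itgb1 and 0.115 in Itgb7. Over the plus-strand members the gene median was 2.83 in 5 alpha chain genes and 2.00 in 3 beta chain genes, and with Itga5 and Itgb7 counted it was 2.64 in alpha and 1.79 in beta chain genes. Across plus-strand protein-coding genes with 20 or more sites the median density was 3.39. Itgal and Itgax stood above it and the other plus-strand members below. Against plus-strand genes with any site, Itgb2 was denser than 53.0%. Alpha and beta chain genes overlapped in density, and the difference was not tested, since genes are not replicates of a condition.

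**Figure D3:**
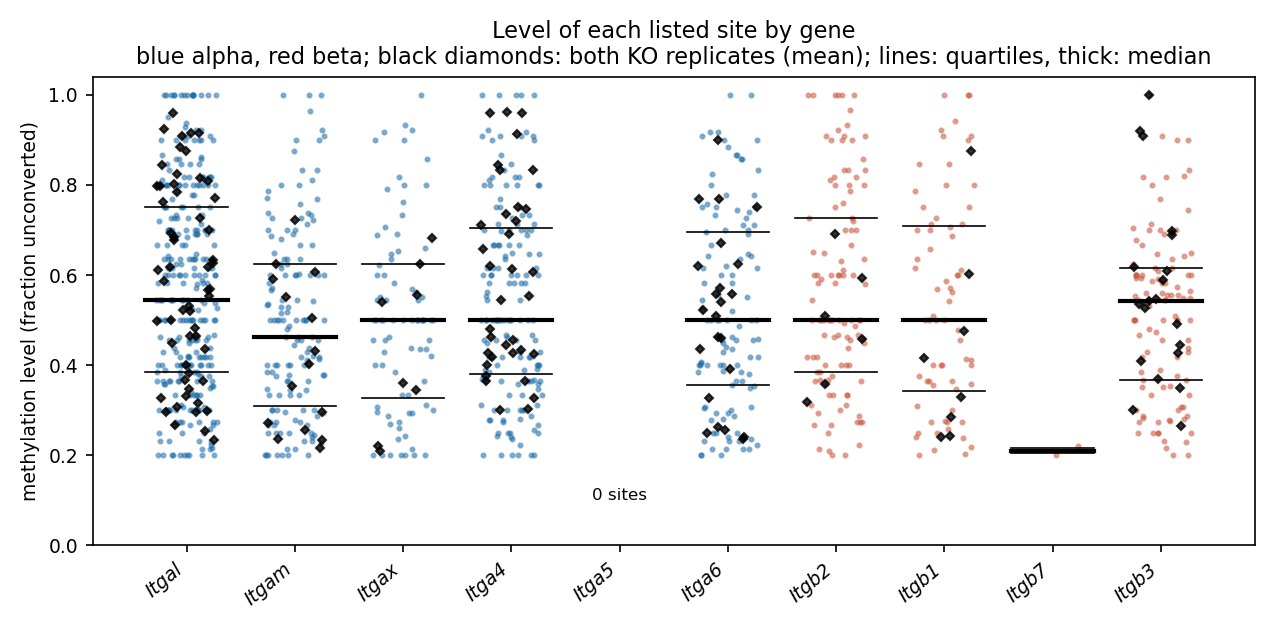
Methylation level (fraction of reads used that stayed unconverted) of each listed site, by gene, alpha chains in blue and beta chains in red. Black diamonds are means over both KO replicates, and lines are the quartiles with the median thick. Medians lie between 0.462 and 0.545 for the 8 plus-strand genes, and 0 points lie below 0.2, the lowest level listed.

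Of the integrin sites most had a call from 1 library. Both libraries made the call at 171 of 1243 sites (13.8%, exact interval 11.9 to 15.8), against 14.2% of the whole table. The share was 137 of 925 (14.8%) in alpha chain genes and 34 of 318 (10.7%) in beta chain genes. By gene it was 18.3% in Itga4, 17.3% in Itga6, 16.0% in Itgb3, 15.8% in Itgal, 10.5% in Itgb1, 9.49% in Itgam, 9.09% in Itgax and 5.22% in Itgb2. The exact intervals were 13.1 to 24.6 in Itga4 and 1.94 to 11.01 in Itgb2, the highest and lowest shares, picked after values were seen. These intervals treat neighbouring sites as independent, which they are not, and the difference was not tested. At the shared sites the replicate levels differed by a median of 0.082, from 0.058 in Itgax, over 8 sites, to 0.181 in Itgb2, over 6. The largest gap was 0.5, in Itga6.

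Deeper sites had lower levels in both classes when genes were pooled. By gene the direction depended on the limit, and at the highest limit Itgam and Itga4 went the other way. At 50 or more covering reads their medians were 0.508 and 0.562 (7 sites), against 0.462 and 0.5 over all their sites. The other plus-strand members had lower medians at that limit. With 20 and 30 or more covering reads Itgam had lower medians, 0.414 and 0.42. Itgal had higher ones there, 0.567 and 0.571, against 0.545 over all its sites. Sites with 10 to 14 covering reads had a median level of 0.545 in alpha and 0.6 in beta chain genes, and sites with 50 or more reads had 0.486 over 73 alpha chain sites and 0.414 over 44 beta chain sites. In the whole table the same bins had 0.545 and 0.432. Of the integrin sites 9.41% had 50 or more covering reads, against 4.49% of the table. A level of 1 was listed at 37 integrin sites, and 0 of these had 20 or more reads used. The share of all listed positions at a level of 1 is not given here. Covering reads outside the level were common at some sites, and for 147 integrin sites (11.8%) under 50% of covering reads were used, against 11.9% in the whole table.

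**Figure D4:**
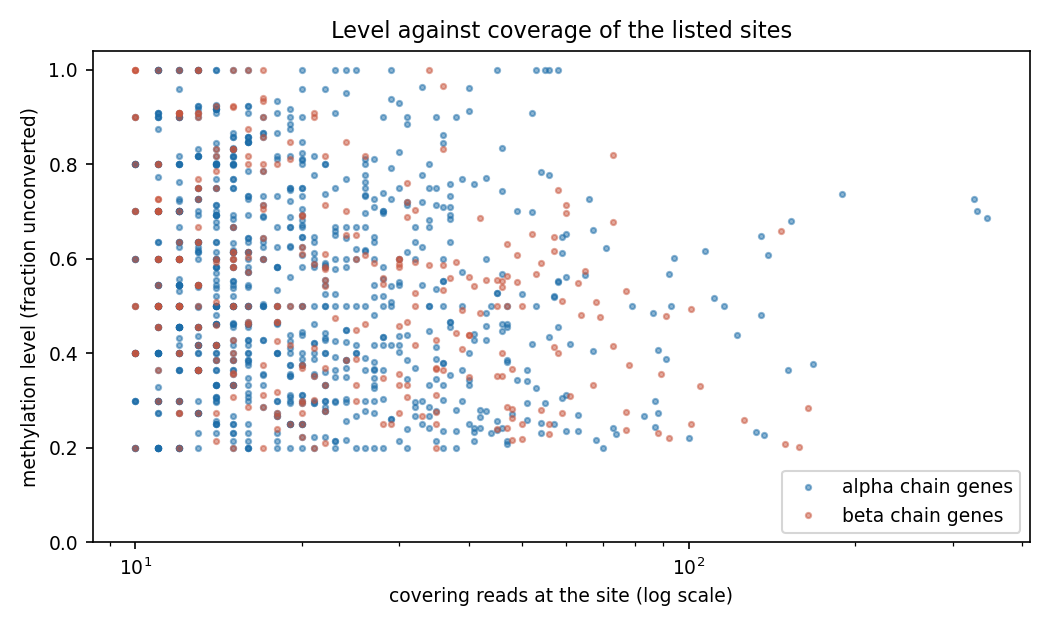
Methylation level (fraction) against covering reads (log scale) for the 1243 sites, alpha chain genes in blue and beta chain genes in red. Levels of 1 stand at low and middle coverage, and the 4 deepest sites, at 189 to 346 reads and levels of 0.686 to 0.737, are all in Itgam.

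The share of sites near the 3' end differed widely among members. The final 10% of the RefSeq gene span held 404 of 1243 sites (32.5%), and 28.9% over all plus-strand protein-coding genes. It held 86 of 125 sites in Itgb3 (68.8%), 92 of 158 in Itgam (58.2%), 73 of 191 in Itga4 (38.2%), 50 of 133 in Itga6 (37.6%) and 23 of 76 in Itgb1 (30.3%). In Itgax it held 20 of 88 (22.7%), in Itgb2 18 of 115 (15.7%) and in Itgal 42 of 355 (11.8%). Over the 4789 plus-strand genes the quartiles of this share were 11% and 42.9%, with a median of 24.8%. Itgb3 and Itgam stood above the upper quartile, and Itgax, Itgb2 and Itgal below the median, so 5 of 8 plus-strand members exceeded it. Without Itgal, left out after its share was seen, the pooled share was 40.8%.

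Cut into 10 equal segments, Itgal and Itgax had sites in each. Itgal had its most, 73, in the sixth segment. The Itgal sites formed 31 groups separated by more than 300 nt, and 15 of these had 8 or more sites. The largest, 43 sites between 127317932 and 127318684, had a median level of 0.6 at a median of 15 covering reads, and 9 of its sites were called in both replicates. In Itgb3 the largest group was 58 sites between 104667333 and 104669540, with a median level of 0.5 and 6 sites in both replicates. In Itga6 it was 49 sites between 71855855 and 71858025 (median 0.462), and in Itgam 46 sites between 128114025 and 128115304 (median 0.401). Exons, introns and untranslated regions were not analysed here.

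Levels near the gene start were above the gene's own median, though not always the highest along the gene. In the first 10% of the span the median level was 0.700 over 29 sites in Itga4, 0.750 over 11 in Itga6, 0.6 over 48 in Itgal and 0.524 over 4 in Itgax. Itgam had 1 site there, at 0.7. In beta chain genes it was 0.662 over 4 sites in Itgb2, 0.714 over 3 in Itgb3 and 0.612 over 2 in Itgb1. Other segments were as high in some genes, such as the fifth in Itgal with 0.615 over 43 sites and in Itgax with 0.625 over 5, and the seventh in Itgb2 with 0.7 over 3 and in Itgb1 with 0.75 over 2. Over the 8 plus-strand members the first 10% had a median of 0.640, the seventh segment 0.619 and the final 10% 0.5. Over all plus-strand protein-coding genes these were 0.636, 0.5 and 0.508. Of the 66 member sites in the seventh segment 56 were in Itgal. The Itga4 sites at the start formed groups of 18 sites within 153 nt (79255648 to 79255800, median 0.695) and of 11 within 75 nt (79256195 to 79256269, median 0.733).

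**Figure D5:**
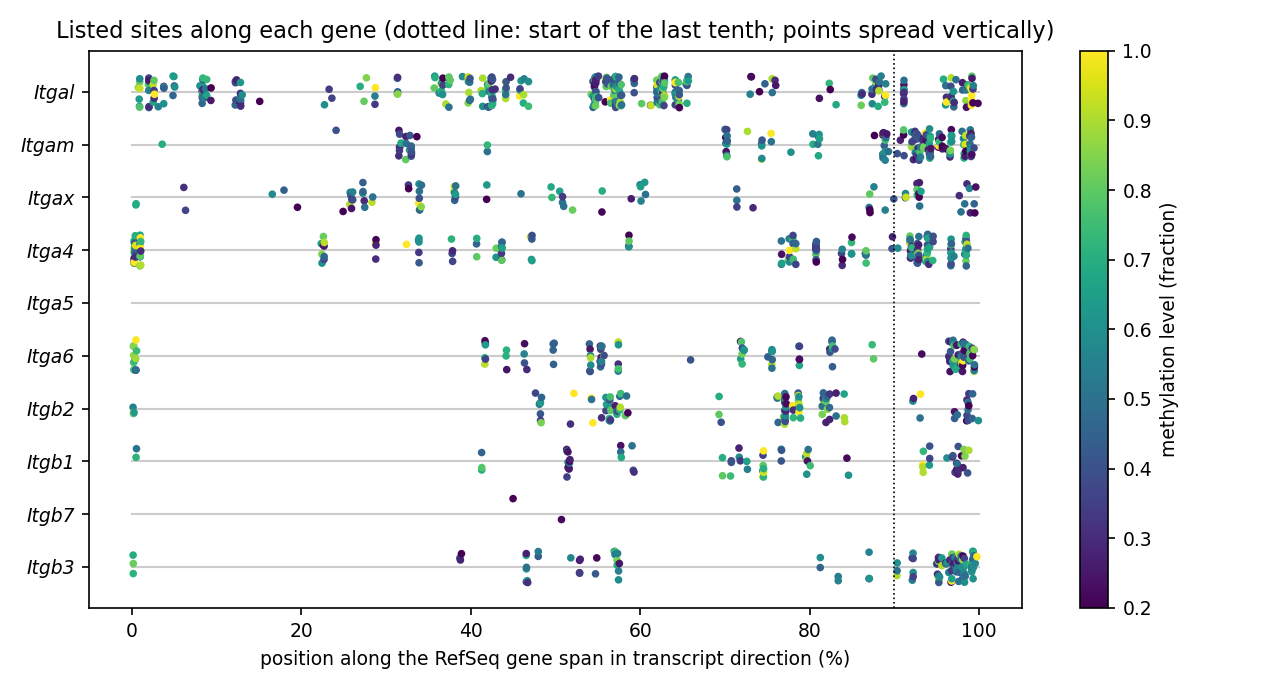
Listed sites along each gene, as percent of the RefSeq gene span in transcript direction (x), with the methylation level as colour and points spread vertically to be visible. Itgal and Itgax sites fill all 10 segments. In Itgb3 and Itgam 68.8% and 58.2% of sites lie right of the dotted line that marks the final 10%.

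Sites often stood close together. Another listed site lay within 10 nt on the same strand for 66.0% of the integrin sites, against 70.3% in the whole table. Among plus-strand members the share was highest in Itga4 (76.4%) and Itgal (73.0%) and lowest in Itga6 and Itgb1 (52.6% each). The longest unbroken row was in Itgal, where 9 neighbouring cytosines from 127317493 to 127317501 were all listed. Their levels were 0.667, 0.583, 0.267, 0.5, 0.798, 0.231, 0.273, 0.4 and 0.727 at 12 to 15 covering reads, so neighbours within the row differed widely. The site at 127317497 was the only one of the 9 called in both replicates. The longest rows in Itga4 and Itga6 had 4 positions, and those in Itgam, Itgb2 and Itgb3 had 3.

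Genes around the integrins were counted by list. Of 36 genes of integrin activation and adaptors, 24 had a site (66.7%), against 34.2% of protein-coding genes and beside 9 of 10 integrin members. The most were listed in Zyx (210 sites, median level 0.542), which encodes a focal adhesion protein, in Vcl (197 sites, 0.5), which encodes vinculin, and in Pxn (194 sites, 0.650), which encodes paxillin. Tln1, the talin gene, lies on the minus strand and had 4 sites with a median level of 0.210. Of 17 integrin ligand genes 7 had a site (41.2%), led by Vwf (268 sites), Thbs1 (189) and Cdh1 (110), and Icam1, a ligand of the receptors with Itgb2, had 67 with a median level of 0.568. Of 16 other integrin genes 3 had a site (18.8%), namely Itgav, Itgb5 with 157 sites and Itga1 with 1. RefSeq's promoter table gives 5 of these 16 the plus strand, of which 2 had a site, and 7 of them the minus strand. The part of RNA amount and strand in these counts was not tested.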

How the data were processed

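Groups were taken from the genotype label. Reads were placed on mm10, per the submitters' processing notes, while the sources used here do not give the aligner or site caller. Per the file headers, the authors averaged each position over the KO replicates with a call. Covering and unconverted reads are treated as a score: whole reads of a single library at sites with 1 call, and the authors' rounded mean at sites with a call in both. The deposited methylation level is a fraction, and the p-values in the authors' deposited table, at most 0.0773 for the rate, are their own. The authors' normalized read numbers were not used. Library totals were not used here (70000000 reads per sample were planned), and 0 columns belonged to other series.

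Reads used were computed as unconverted reads over level, which gave whole numbers at 100% of sites with 1 call (tolerance 0.0006). Replicate levels were read as mean ± deposited SD, taken as a population SD, since mean plus SD then passed a level of 1 by more than rounding (0.0015) at 0 sites. Sites were joined by label to RefSeq gene spans of the same assembly, and all 1243 lay inside. Named sites were, per gene, the highest level with 20 or more covering reads (ties to higher coverage), the most covering reads and the most reads used. Sites called in both replicates, groups, rows of neighbouring positions and values by segment, the 3' end of Itgam, Tln1 and Icam1 were singled out after values were seen. Wilson (levels) and Clopper-Pearson (shares) intervals are at 95%. No test between groups was made: the planned test of KO against WT needs WT values, and genes and sites are not replicates. The members and lists were chosen with earlier results of these data known. Steps were tested on simulated data. Software was Python 3.11.15, numpy 2.4.6, pandas 2.3.3 and scipy 1.17.1.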

Additional observations from a re-analysis of the deposited data

How the results depend on the processing

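The number of members with a site was 8 or 9 and the median level of the integrin sites lay between 0.467 and 0.531 under all alternatives run, while the order of the gene medians changed with the coverage limits. Site numbers followed the limits: 557, 313 and 117 of 1243 sites had at least 20, 30 and 50 covering reads, 285 had 20 or more reads used, 422 stood outside runs and 171 were called in both replicates. The share called in both was 16.9%, 15.7% and 12.8% at 20, 30 and 50 or more covering reads. It was 13.0% at 20 or more reads used and 11.4% outside runs. With Itga5 and Itgb7 counted, the median density per kb was 1.34 in alpha and 0.923 in beta chain genes at 20 or more covering reads, 0.736 and 0.567 at 20 or more reads used, and 0.350 and 0.168 for sites called in both. The share in the final 10% of the span was 45.8% at 20 or more covering reads, 36.3% for sites called in both and 40.8% without Itgal, an alternative added after seeing the data. The cause of the changes in share was not tested. Density per protein residue was not run, since no protein table was used here, and replicates could not be left out. No paired analysis was possible because the table holds no single-library and no WT values. Levels rest on a median of 13 reads used.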

Other observations

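Neighbouring listed cytosines had a larger median difference in level than replicates at the same position in 7 of 8 plus-strand integrin genes. Over 115 pairs of listed sites at adjacent positions the median absolute difference in level was 0.243, with a largest value of 0.722 in Itga6. By gene the median was 0.262 over 50 pairs in Itgal, 0.267 over 17 in Itga4 and 0.257 over 16 in Itga6. In Itgb2 it was 0.234 over 10 pairs, against 0.181 between replicates over 6 sites. Few pairs lay in Itgb3 (0.254 over 6), Itgb1 (0.238 over 5) and Itgax (0.1285 over 4). In Itgam the median over neighbours was 0.1 over 7 pairs, below the median replicate difference of 0.132 over 15 sites. Between the replicates, at the 171 sites called in both, the median difference was 0.082. Sites called in both had to pass the authors' limits in each library, so these values come from different selections, and the difference was not tested. The same values over all listed positions are not given here.

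Of the 1243 integrin sites, 26 had in the authors' deposited table a p-value for the rate above 0.05. The largest p-values of the integrin sites, 0.0773 for the rate and 0.000114 for the state, were also the largest over all listed positions. The share of all listed positions above 0.05 is not given here, so the 26 sites are not shown to be particular to the integrin genes.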
